A study of Sus scrofa with 6 samples.

Results

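DNA methylation is written, copied, removed and read by a small set of proteins, and the RNA levels of 10 genes for them were measured in pig fibroblasts and in the stem-cell-like lines made from them. The genes are the methyltransferases DNMT1, DNMT3A and DNMT3B, the cofactor DNMT3L, the maintenance partner UHRF1, the dioxygenases TET1, TET2 and TET3, the glycosylase TDG and MBD3. They were chosen by name for their known roles, with earlier results of these data known, and they are 10 of the 18007 genes listed. A row with the symbol was found for 9 of them, and DNMT3L was found through its gene identifier.

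In mammals, DNMT3A and DNMT3B place methyl groups on unmethylated CpG sites, with DNMT3L as a cofactor that has no catalytic activity of its own. At replication, UHRF1 binds hemimethylated DNA and brings in DNMT1, which copies the pattern to the new strand. The TET enzymes oxidise methylated cytosine, and TDG cuts out the later oxidation products so that base excision repair can put an unmethylated cytosine back. These steps are known for large shifts in the germ line, in the early embryo and when somatic cells are reprogrammed.

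The fibroblasts (PEF5, PEF7 and PEF8) were grown from the ear tips of embryos at embryonic day 90, from a cross of a Large White boar with a Meishan sow. The induced lines (piPSC5, piPSC7 and piPSC8) were each made from the fibroblast line of the same number with Oct4, Sox2, Klf4 and cMyc, which were carried by lentivirus and switched on by doxycycline, and their picked colonies were kept on mouse feeder cells. Each line gave 1 poly-A RNA library, so the spread within a group is the spread between lines. Levels are FPKM, fragments scaled to gene length and to the fragments of the library, and the libraries held between 11010629 and 17836510 fragments. Fragments of feeder cells cannot be told apart here from those of the piPSCs, nor can fewer cells of a type from less RNA per cell.

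The study describes all of the fibroblast lines as male. DDX3Y, a gene of the Y chromosome, had 3439 fragments in PEF8 and 4207 in piPSC8, and 0 in both libraries of line 5 and of line 7. What this does to the values below was not tested.

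The cell types were checked against marker lists. All 8 fibroblast markers were lower in piPSCs, and their summed level was 6702, 8408 and 5194 FPKM in PEF5, PEF7 and PEF8 against 422, 377 and 230 FPKM in piPSC5, piPSC7 and piPSC8. Vimentin (VIM) was the most abundant of them in PEF5, piPSC5 and piPSC7, COL1A1 in PEF7, and COL3A1 in PEF8 and piPSC8. Of the pluripotency markers, 5 were listed, and SOX2 and LIN28B passed the filter on low values through the piPSC libraries alone, so they are given as a description. SOX2 stood at 0, 0.00941 and 0.0208 FPKM in PEF5, PEF7 and PEF8 and at 3.01, 2.49 and 0.129 FPKM in piPSC5, piPSC7 and piPSC8. Fragments of the lentiviral Sox2 cannot be told apart here from those of the cells' own gene. LIN28B stood at 0.0104, 0.0111 and 0.0367 FPKM and at 2.51, 0.281 and 8.90 FPKM. Both were higher in every piPSC library than in any PEF library. NANOG had 0 fragments in every library but piPSC7, where it stood at 0.0919 FPKM, and SALL4 and ESRRB stayed at or under 0.0509 FPKM. POU5F1, LIN28A, DPPA5 and TDGF1 were not analysed here.

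Markers of other cell types were also read. GATA3 and TFAP2C of the trophoblast list were tested, and both passed the filter through the PEF libraries alone, so their change is given as a description. GATA3 changed by -1.52 on the log2 scale. TFAP2C had 0 fragments in every piPSC library, at least 16.2-fold lower against a floor of 3 fragments per library. By line, TFAP2C was at least 7.88-, 9.72- and 28.4-fold lower in lines 5, 7 and 8, so PEF8 carried much of that limit. The tested markers of neural progenitors (NES and PAX6) and of blood (SPI1) were not called. KRT14 of the epithelial list and PECAM1 of the endothelial list also passed through 1 group alone. KRT14 reached 3.04 FPKM in piPSC7 and at most 0.483 FPKM elsewhere. Of the untested epithelial markers, KRT5 and KRT8 were also highest in piPSC7, at 0.806 and 0.903 FPKM. KRT18 and EPCAM were highest in PEF8, at 0.627 and 0.0734 FPKM, and CDH1 in PEF7, at 0.117 FPKM. PECAM1 reached 2.57 FPKM in PEF8 and at most 0.566 elsewhere. The untested endothelial markers CDH5 and KDR were each above 0 in 1 library only, at 0.0111 FPKM in PEF5 and 0.0110 FPKM in piPSC5. NES had 14.5 FPKM in PEF5 and 5.73 in PEF8. PAX6 had up to 5.20 FPKM in PEF7 and 5.00 in piPSC7. The part of any other cell type in the results that follow was not tested.

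The groups were compared with limma on log2(FPKM + 1) across the 12428 genes with a mean of at least 0.5 FPKM, and calls needed a 2-fold change or more with an adjusted p under 0.05. On this scale the change of genes with low levels is understated. Of the 10 genes, 9 were tested, 5 were called higher in piPSCs (DNMT1, UHRF1, TET2, TET3 and TDG) and 0 were called lower. Of all tested genes, 36.8% were called, 20.2% as higher and 16.7% as lower. The members and the lists below were chosen with earlier results of these data known, so their counts are descriptions. DNMT3A, DNMT3B, TET1 and MBD3 were tested and not called, and DNMT3L was under the filter. DNMT3B passed the filter through the piPSC libraries alone, so its change is given as a description. Scaling the libraries by median ratios or to equal sums of 1000000 moves the median change over the tested genes from 0.20 to -0.01 and -0.06 on the log2 scale, and DNMT1, UHRF1 and TET3 were then called. The equal sums are above the summed FPKM of every library, so they also make the pseudocount of 1 smaller against the values. The PEF and piPSC values did not overlap in 5 of the 9 tested genes, against 64.1% of all tested genes.

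**Figure D1:**
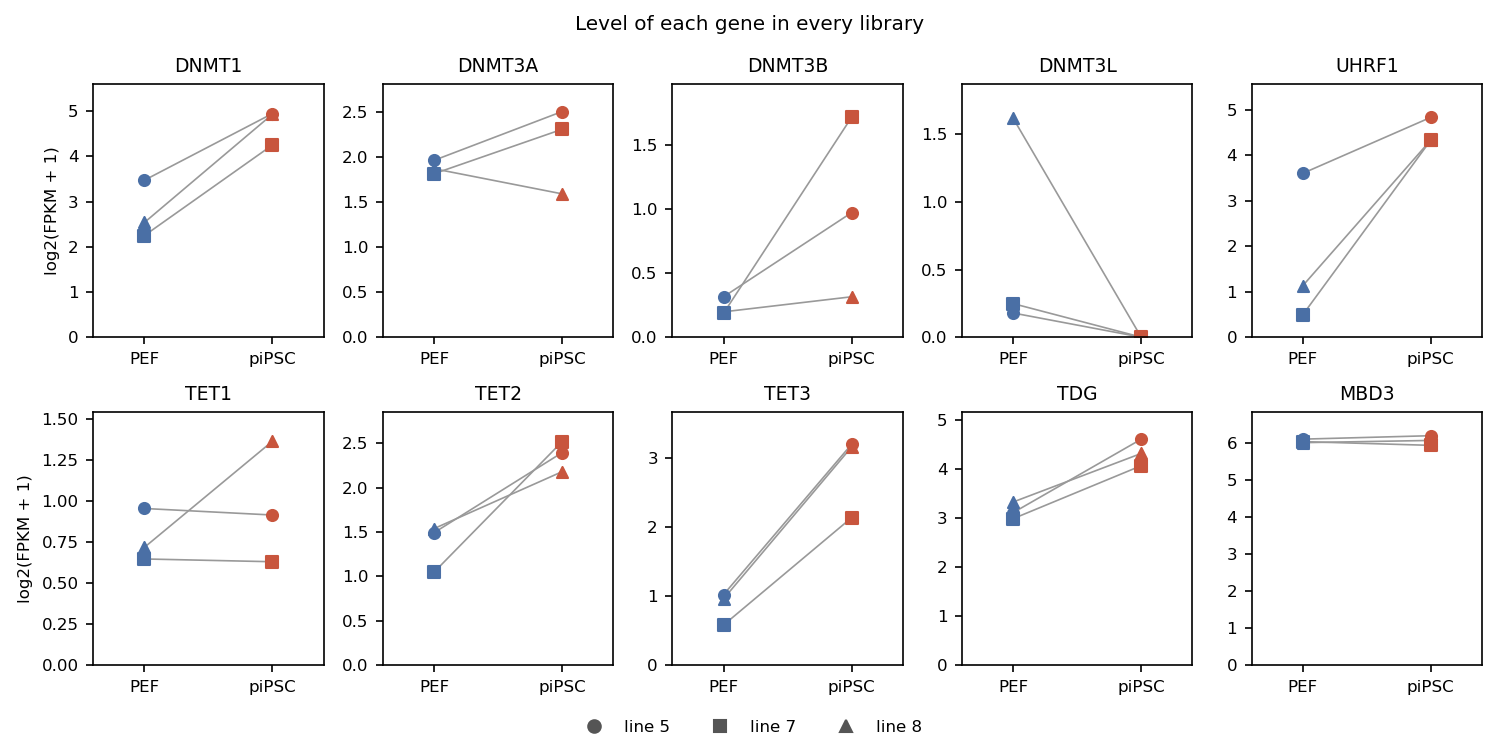
Level of each of the 10 genes as log2(FPKM + 1) in every library, with PEF in blue and piPSC in red, and a grey line joining the libraries of 1 cell line. DNMT1, UHRF1, TET2, TET3 and TDG lie higher in all 3 piPSC libraries than in any PEF library, and DNMT3L is at 0 in all 3.

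The de novo writers differed in level. DNMT3A (ENSSSCG00000029413, chromosome 3 of Sscrofa11.1 from 113502333 to 113609129) had 2.91, 2.52 and 2.66 FPKM in PEF5, PEF7 and PEF8, and 4.69, 3.96 and 2.02 FPKM in piPSC5, piPSC7 and piPSC8. The level was above all PEF libraries in lines 5 and 7 and below them in piPSC8, so the groups overlapped. Its log2 fold change of 0.25 did not pass (limma, SE 0.28, adjusted p = 0.473). It was 0.52 without piPSC8 and 0.07 without piPSC5, and neither fit called it.

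DNMT3B (ENSSSCG00000007252, chromosome 17 from 36332801 to 36388412) was far lower, at 0.244, 0.139 and 0.147 FPKM in the PEFs and 0.960, 2.28 and 0.244 FPKM in the piPSCs. These levels rest on 47, 25 and 24 fragments in PEF5, PEF7 and PEF8 and on 156, 293 and 29 in piPSC5, piPSC7 and piPSC8. Lines 5 and 7 were higher after reprogramming, and piPSC8 was at the level of PEF5. The log2 fold change was 0.77 (SE 0.38), and it was 1.11 without piPSC8, 0.41 without piPSC7, 1.81 with a pseudocount of 0.1 and 2.28 with voom. The annotated end of DNMT3B overlaps MAPRE1 on the same strand over 1351 bp, and MAPRE1 had between 21.0 and 41.2 FPKM. How fragments in the shared stretch were counted is not given in the sources used here.

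As a share of the summed FPKM of DNMT3A and DNMT3B, DNMT3B made up 7.75%, 5.20% and 5.22% in PEF5, PEF7 and PEF8, and 17.0%, 36.5% and 10.8% in piPSC5, piPSC7 and piPSC8. The share was higher in every piPSC library than in any PEF library, and the piPSC libraries were spread widely. The difference of means was 15.4 percentage points (exact permutation test, two-sided, p = 0.1, adjusted p = 0.233 over the 7 ratios and shares). With 3 libraries against 3, 0.1 is the smallest p this test can give, so no ratio or share could pass 0.05. The difference was 7.83 percentage points without piPSC7, 7.40 with a pseudocount of 1 and 23.7 with fragments in place of FPKM.

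DNMT3L (ENSSSCG00000028741, chromosome 13 from 207119503 to 207133114) had 3, 4 and 40 fragments in PEF5, PEF7 and PEF8, or 0.132, 0.188 and 2.07 FPKM. It had 0 fragments in all 3 piPSC libraries. With 0 counted, as many as 3 fragments are possible, or 0.156 FPKM in piPSC5, 0.198 in piPSC7 and 0.214 in piPSC8, and such limits cover the counting error only. In line 8 the level was at least 9.69-fold lower in the piPSCs, while in lines 5 and 7 a difference was not detectable at this depth. The level in fibroblasts thus came almost wholly from PEF8.

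DNMT1 (ENSSSCG00000013659, chromosome 2 from 68981566 to 69029855), the maintenance methyltransferase, had 10.1, 3.75 and 4.80 FPKM in PEF5, PEF7 and PEF8. It had 29.8, 18.0 and 29.5 FPKM in piPSC5, piPSC7 and piPSC8. PEF5 was the highest fibroblast library and piPSC7 the lowest piPSC library, and the groups did not overlap. DNMT1 rose by a log2 fold change of 1.96 (limma, SE 0.36, adjusted p = 0.00534), made up of 1.47, 2.00 and 2.39 in lines 5, 7 and 8 on the same log2(FPKM + 1) scale. DNMT1 was called under all 15 alternatives, with log2 fold changes from 1.70 to 2.32.

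UHRF1 (ENSSSCG00000013517, chromosome 2 from 73897310 to 73931916) had 11.11 FPKM in PEF5 and only 0.407 and 1.19 FPKM in PEF7 and PEF8. The piPSC libraries had 27.4, 19.1 and 19.1 FPKM. The fibroblast lines were thus further apart than the piPSC lines, although no PEF value reached a piPSC value. UHRF1 rose by 2.75 on the log2 scale (limma, SE 0.76, adjusted p = 0.0226), made up of 1.23 in line 5, 3.83 in line 7 and 3.20 in line 8. Without PEF5 it was 3.68 (limma adjusted p = 0.00157). Without PEF7, PEF8, piPSC5 or piPSC7 the call was lost, with log2 fold changes of 2.13, 2.45, 2.59 and 2.84 and limma adjusted p values of up to 0.0731.

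**Figure D2:**
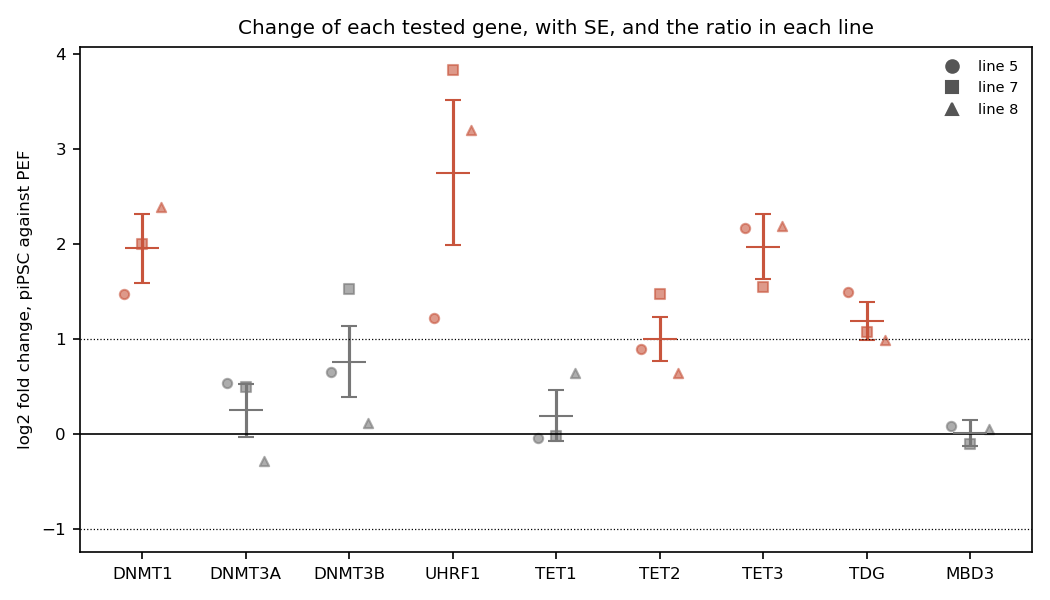
Log2 fold change of the 9 tested genes in piPSCs against PEFs on the log2(FPKM + 1) scale, as a horizontal mark with its SE, beside the change in each cell line (points). Genes in red were called, dotted lines mark a 2-fold change, and the points of UHRF1 run from 1.23 to 3.83.

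PEF5 also stood apart in genes of DNA replication. The 11 S phase genes analysed (MCM5 was not analysed here) summed to 278, 60.8 and 93.7 FPKM in the order PEF5, PEF7, PEF8 and to 525, 467 and 498 FPKM in the piPSC libraries. PCNA was the most abundant. Of the 11, 7 were called higher and 0 lower, against 20.2% and 16.7% of all tested genes. The median log2 fold change of the 11 was 1.70 against 0.20 for all tested genes. The largest were MCM2 (3.52), MCM3 (2.98), MCM4 (2.48) and MCM6 (2.27), all subunits of the replicative helicase. Without PEF5 all 11 were called, without PEF8 or piPSC5 only 3, and with the line as a block 9. The calls of MCM3 and MCM4 were lost without PEF8 or piPSC5, and that of MCM4 also without piPSC7 or piPSC8.

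DNMT1 was set against these genes within each library, as its log2 FPKM minus the mean log2 FPKM of the 11. The log2 ratio was -0.72, 0.71 and -0.11 in PEF5, PEF7 and PEF8, and -0.11, -0.61 and -0.02 in piPSC5, piPSC7 and piPSC8. The piPSC values lay within the span of the PEF values. The difference was -0.21 (exact permutation test, two-sided, p = 0.8, adjusted p = 0.8), and it was 0.17 without PEF7. DNMT1 and UHRF1 were higher where the S phase genes were higher, and the part of cell division in their change was not tested.

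**Figure D3:**
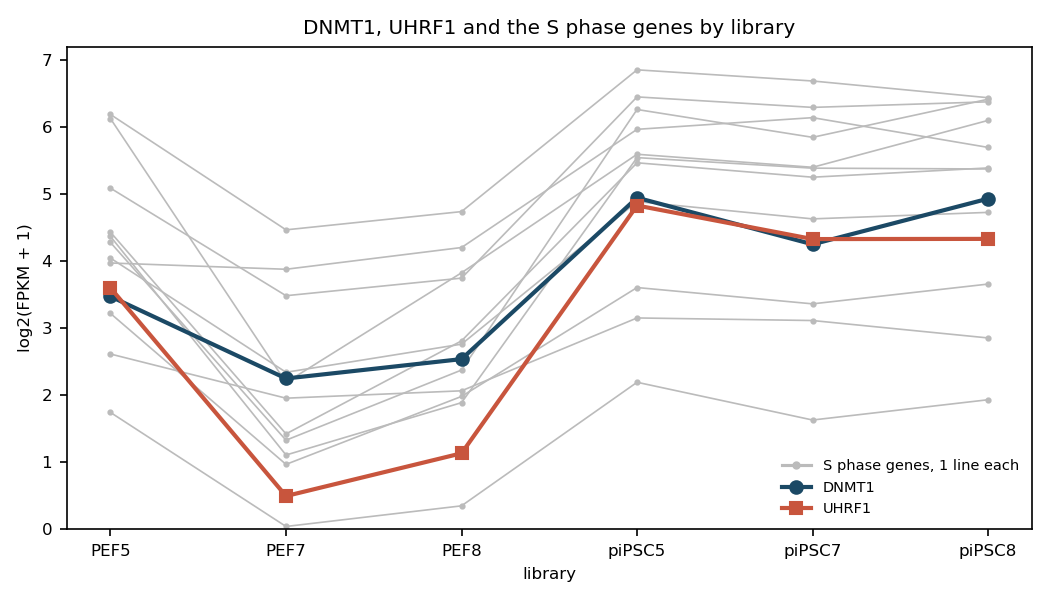
Level of DNMT1 (dark blue), UHRF1 (red) and each of the 11 S phase genes (grey) as log2(FPKM + 1) in the 6 libraries. UHRF1 is at 11.11 FPKM in PEF5 and at 0.407 and 1.19 FPKM in PEF7 and PEF8, and most grey lines are also higher in PEF5 than in PEF7 and PEF8.

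The log2 ratio of UHRF1 to DNMT1 was 0.14 for PEF5, -3.20 for PEF7 and -2.01 for PEF8. It was -0.12, 0.08 and -0.63 in piPSC5, piPSC7 and piPSC8. The 2 genes were at like levels in the piPSC libraries and in PEF5, and UHRF1 was well below DNMT1 in PEF7 and PEF8. The difference of 1.47 did not separate the groups (exact permutation test, two-sided, p = 0.4, adjusted p = 0.56), and it was 2.39 without PEF5, 0.72 without PEF7 and 0.80 with a pseudocount of 1. The log2 ratio of DNMT1 to the sum of DNMT3A and DNMT3B was 1.68, 0.49 and 0.77 in the PEFs and 2.40, 1.53 and 3.70 in the piPSCs. It was higher in the piPSC library of each line, while PEF5 overlapped piPSC7. The difference was 1.56 (exact permutation test, two-sided, p = 0.2, adjusted p = 0.35), and it ran from 0.98 without piPSC8 to 2.07 without piPSC7.

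Other genes of maintenance were read from a list of 7. Of these, 4 were called higher and 0 lower, against 20.2% and 16.7% of all tested genes. The median log2 fold change of the 7 was 1.43. CDCA7, which recruits the remodeller HELLS, had 2.85, 0.162 and 0.158 FPKM in PEF5, PEF7 and PEF8 and 58.9, 38.8 and 46.1 FPKM in the piPSCs. At 4.80 its log2 fold change (limma, SE 0.49, adjusted p = 0.000692) was the largest of the list. HELLS itself had 2.74, CDCA7L 1.97 and the DNA ligase LIG1 1.43, and all 4 were higher in PEF5 than in PEF7 and PEF8. The call of LIG1 was lost without any 1 of PEF7, PEF8 and the piPSC libraries and with rescaling to an equal sum (limma adjusted p from 0.00295 to 0.0760 over the alternatives). UHRF2, the relative of UHRF1, went the other way by -0.76 on the log2 scale and fell short of 2-fold. Under both rescalings 1 gene of the list was called lower.

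The base sequences before the starts of DNMT1, UHRF1, TET2 and TDG are shown because these members rose and because CpG sites are what the proteins act on. Each runs from 250 bases before the RefSeq transcript start nearest to the listed gene start to 50 bases from it on, on Sscrofa11.1, and capitals mark each CpG. TET3 and DNMT3B are left out, since their RefSeq starts lie 51.5 and 12.9 kb from the listed ones.
DNMT1 (chr2:69029784-69030083, minus strand): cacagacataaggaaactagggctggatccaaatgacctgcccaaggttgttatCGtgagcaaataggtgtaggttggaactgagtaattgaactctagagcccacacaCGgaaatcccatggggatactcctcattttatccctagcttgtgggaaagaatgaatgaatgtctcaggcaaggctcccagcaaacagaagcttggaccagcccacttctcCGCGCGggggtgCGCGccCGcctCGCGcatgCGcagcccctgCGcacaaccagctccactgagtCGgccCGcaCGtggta
UHRF1 (chr2:73931808-73932107, minus strand): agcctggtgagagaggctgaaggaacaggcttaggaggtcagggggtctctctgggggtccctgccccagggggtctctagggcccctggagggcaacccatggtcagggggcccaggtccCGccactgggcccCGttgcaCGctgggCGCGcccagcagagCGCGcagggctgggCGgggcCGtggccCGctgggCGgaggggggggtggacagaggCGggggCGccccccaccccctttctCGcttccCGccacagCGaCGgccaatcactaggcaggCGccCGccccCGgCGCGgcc
TET2 (chr8:116545482-116545781, minus strand): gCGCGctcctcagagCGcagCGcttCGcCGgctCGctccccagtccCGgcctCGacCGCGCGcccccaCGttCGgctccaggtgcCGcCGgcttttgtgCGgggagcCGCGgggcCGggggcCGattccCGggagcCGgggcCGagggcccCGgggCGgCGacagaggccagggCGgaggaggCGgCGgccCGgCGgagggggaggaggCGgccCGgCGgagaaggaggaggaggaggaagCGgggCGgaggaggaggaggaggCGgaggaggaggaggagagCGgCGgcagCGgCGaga
TDG (chr5:80492246-80492545, minus strand): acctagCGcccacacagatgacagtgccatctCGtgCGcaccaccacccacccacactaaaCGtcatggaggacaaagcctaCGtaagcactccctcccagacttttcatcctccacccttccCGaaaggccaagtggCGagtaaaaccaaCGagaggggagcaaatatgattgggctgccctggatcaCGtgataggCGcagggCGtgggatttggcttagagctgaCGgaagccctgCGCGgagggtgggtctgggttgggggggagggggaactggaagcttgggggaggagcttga

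These windows held 15 CpG sites for DNMT1, 22 for UHRF1, 42 for TET2 and 14 for TDG, against a median of 22 over 12910 protein-coding genes of the table with such a window. TET2 had more than 90.4% of these windows, and DNMT1, UHRF1 and TDG were at or under the median. Of the members not called, MBD3 had 45, DNMT3A 18 and TET1 5, and DNMT3L had 9. The windows were also searched on both strands for TTTCCCGC, TTTGCCGC, TTTCGCGC and TTTGGCGC, the spelled-out forms of a motif of E2F factors. None was in the windows of DNMT1, UHRF1, TET2, TDG, DNMT3A, TET1 or DNMT3L, which says only that these letters are not there. MBD3 had 1 match (TTTGCCGC on the reverse strand, 27 bases after the start). A match was in 4.15% of all windows and in 3 of the 8 S phase genes with a window. DNMT1, UHRF1 and MBD3 share chromosome 2, with 4.87 Mb between DNMT1 and UHRF1 and 2.98 Mb between UHRF1 and MBD3.

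Among the erasers, TET1 (ENSSSCG00000010241, chromosome 14 from 71675671 to 71812694) had 0.939, 0.566 and 0.645 FPKM in PEF5, PEF7 and PEF8 and 0.886, 0.548 and 1.58 FPKM in the piPSCs. Only piPSC8 was above the fibroblasts, and in lines 5 and 7 the paired libraries were nearly level. In limma it changed by 0.20 on the log2 scale (SE 0.27, adjusted p = 0.563), and by -0.00071 without piPSC8.

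TET2 (ENSSSCG00000009157, chromosome 8 from 116415272 to 116545514) had 1.81, 1.07 and 1.91 FPKM in the PEFs and 4.26, 4.73 and 3.53 FPKM in the piPSCs. All piPSC values were above all PEF values. At 1.01, its log2 fold change (limma, SE 0.23, adjusted p = 0.0113) lay at the 2-fold threshold. It fell under 2-fold, and so lost its call, without PEF7 (0.85), piPSC5 (0.99) or piPSC7 (0.93) and with rescaling to the median ratio (0.81) or to an equal sum (0.95). In all of the alternatives the limma adjusted p stayed between 0.00604 and 0.0416.

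TET3 (ENSSSCG00000008292, chromosome 3 from 68924990 to 68968883) had 1.02, 0.493 and 0.941 FPKM in the PEFs. It had 8.14, 3.38 and 7.90 FPKM in the piPSCs, with piPSC7 the lowest as PEF7 was among the fibroblasts. TET3 rose by 1.97 on the log2 scale (limma, SE 0.34, adjusted p = 0.00403), and TET3 was called under all 15 alternatives, with log2 fold changes from 1.79 to 2.96.

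Shares of the TET sum were taken within each library. TET3 was 27.1%, 23.2% and 27.0% of the summed FPKM of the 3 genes in PEF5, PEF7 and PEF8 and 61.2%, 39.0% and 60.7% in piPSC5, piPSC7 and piPSC8. TET1 was 24.9%, 26.6% and 18.5% in the PEFs and 6.67%, 6.32% and 12.1% in the piPSCs. In fibroblasts TET2 was the most abundant of the 3, and in piPSC5 and piPSC8 it was TET3. The share of TET3 was higher by 27.9 and that of TET1 changed by -14.9 percentage points, with no overlap of the groups in either (exact permutation tests, two-sided, p = 0.1 and adjusted p = 0.233 for each).

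**Figure D4:**
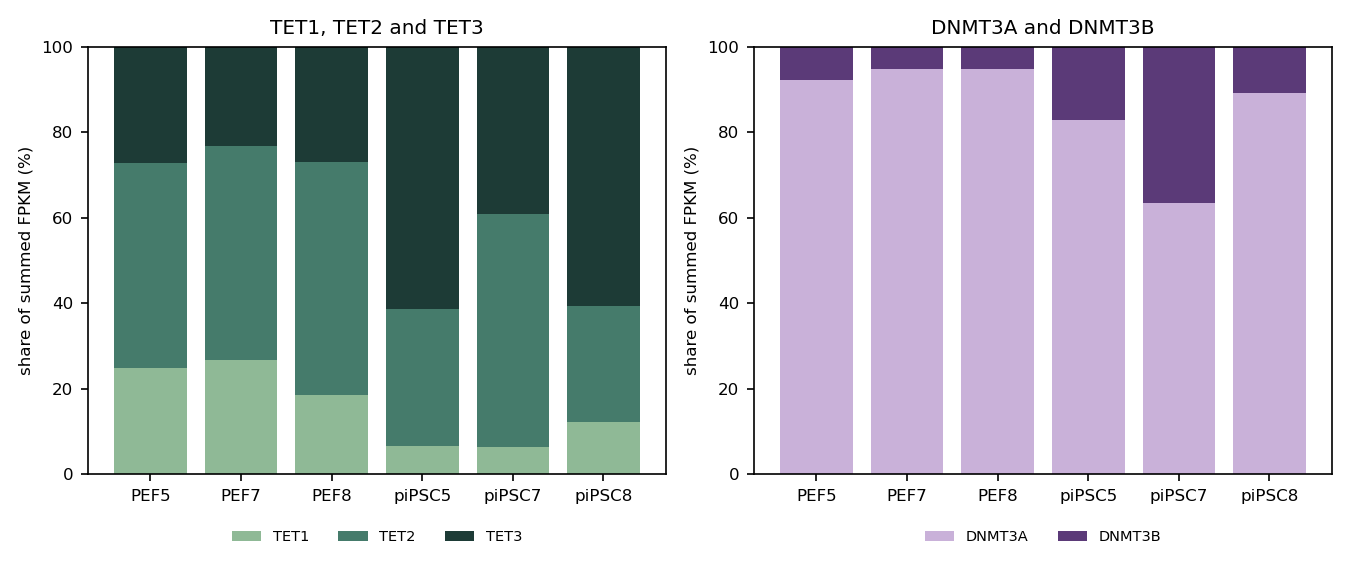
Shares of the summed FPKM (%) of TET1, TET2 and TET3 (left) and of DNMT3A and DNMT3B (right) in each library. TET3 takes 23.2% to 27.1% in PEFs and 39.0% to 61.2% in piPSCs, and DNMT3B takes 5.20% to 7.75% and 10.8% to 36.5%.

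Writers and erasers were then set against each other. DNMT1, DNMT3A and DNMT3B summed to 13.2, 6.41 and 7.61 FPKM in PEF5, PEF7 and PEF8 and to 35.4, 24.3 and 31.7 FPKM in the piPSCs, and the TET genes to 3.78, 2.12 and 3.49 and to 13.3, 8.66 and 13.0 FPKM. Both sums were higher in every piPSC library than in any PEF library. Their log2 ratio was 1.81, 1.59 and 1.12 in the PEFs and 1.42, 1.49 and 1.29 in the piPSCs, a difference of -0.11 (exact permutation test, two-sided, p = 0.6, adjusted p = 0.7). The sign turned without PEF5 (0.04) and with fragments in place of FPKM (0.21).

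TDG (ENSSSCG00000000847, chromosome 5 from 80437959 to 80492252) had 7.62, 6.92 and 9.02 FPKM in PEF5, PEF7 and PEF8 and 23.4, 15.7 and 18.9 FPKM in the piPSCs. Every line was higher after reprogramming and the groups did not overlap. TDG rose by 1.19 on the log2 scale (limma, SE 0.20, adjusted p = 0.00359), and this was 0.94 under both rescalings, short of 2-fold. TDG overlaps GLT8D2 on the opposite strand over 35330 bp, and GLT8D2 had 55.3, 64.6 and 36.7 FPKM in the PEFs and 3.09, 2.12 and 0.315 FPKM in the piPSCs. Whether fragments of the shared stretch were told apart by strand is not given in the sources used here. The part of GLT8D2 fragments in the values of TDG was not tested.

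Base excision repair, which follows TDG, was read from 14 genes, of which 13 were tested. Of these, 6 were called higher and 0 lower, against 20.2% and 16.7% of all tested genes. The median log2 fold change of the 13 was 0.94. Under both rescalings 4 were called higher, and 1 was called lower with equal sums. PARP1, which senses strand breaks, had 16.1, 9.48 and 9.07 FPKM in PEF5, PEF7 and PEF8 and 88.9, 96.6 and 106 FPKM in the piPSCs. PARP1 rose by 3.01 on the log2 scale (limma, SE 0.23, adjusted p = 0.000332). The uracil glycosylase UNG had 2.03, the scaffold XRCC1 1.89 and the glycosylase NEIL3 1.87, and NEIL3 lost its call without PEF8, piPSC5 or piPSC7 and with rescaling to an equal sum. The endonuclease gene APEX1 was found only through its gene identifier, at 0.186 FPKM or less in every library, and did not reach the filter. That row held at most 10 fragments in a library, and whether it captures the gene was not tested.

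MBD3 (ENSSSCG00000013435, chromosome 2 from 76913905 to 76923431), a protein of the methyl-CpG-binding family that sits in the NuRD repressor complex, was the most abundant of the 10 genes in both groups. It had 67.6, 64.4 and 63.2 FPKM in PEF5, PEF7 and PEF8 and 72.1, 60.0 and 65.9 FPKM in the piPSCs. The libraries of both groups were mixed in order, and the spread was small. In limma the change was 0.02 on the log2 scale (SE 0.13, adjusted p = 0.921), and it was -0.25 and -0.30 under the rescalings to the median ratio and to an equal sum. An unnamed gene on the opposite strand (ENSSSCG00000038827) overlaps it over 2718 bp, with at most 2.34 FPKM in the PEFs and 9.46 to 13.2 FPKM in the piPSCs.

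Of the 10 analysed partners of MBD3 in NuRD (MTA1 was not analysed here), 4 were called higher and 0 lower. The shares of all tested genes were 20.2% and 16.7%. The median log2 fold change of the 10 was 0.83. The deacetylase HDAC2 had 1.85, GATAD2A 1.59, RBBP7 1.28 and MTA3 1.09. The call of MTA3 was lost without any 1 of PEF5, PEF7, PEF8, piPSC5 and piPSC7 and under both rescalings (limma adjusted p from 0.00622 to 0.0801 over the alternatives). Of 9 other genes of the MBD and ZBTB families, 0 were called higher and 2 lower, against 20.2% and 16.7% of all tested genes. The median of the 9 was -0.38. ZBTB4 had 9.19, 11.13 and 11.5 FPKM in the PEFs and 1.09, 2.50 and 0.122 FPKM in the piPSCs, and it changed by -2.52 on the log2 scale (limma, SE 0.41, adjusted p = 0.00328). ZBTB38 had -1.33, and its call was lost without PEF8 or piPSC5.

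In the order of mean FPKM in fibroblasts, MBD3 (65.1) was followed by TDG (7.85), DNMT1 (6.21), UHRF1 (4.24), DNMT3A (2.70), TET2 (1.60), TET3 (0.819), DNMT3L (0.796), TET1 (0.716) and DNMT3B (0.176). TDG, DNMT1 and UHRF1 each overlapped the next gene in that order over the libraries, as did TET3 and DNMT3L. In piPSCs the order was MBD3 (66.0), DNMT1 (25.8), UHRF1 (21.9), TDG (19.3), TET3 (6.47), TET2 (4.18), DNMT3A (3.56), DNMT3B (1.16), TET1 (1.00) and DNMT3L (0). DNMT1, UHRF1 and TDG overlapped one another in turn, as did the genes from TET3 down to TET1.

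The cofactors of these enzymes were also read. S-adenosylmethionine is the methyl donor of the DNMTs, and 12 genes of its cycle were tested. MAT1A and SHMT1 passed the filter through 1 group alone, so no count or median is given for them all. AHCY, which clears the product S-adenosylhomocysteine, had 8.81, 5.10 and 6.13 FPKM in the PEFs and 87.8, 74.1 and 90.3 FPKM in the piPSCs. AHCY rose by 3.49 on the log2 scale (limma, SE 0.21, adjusted p = 0.000179). MTHFD1 had 2.17, and the methionine synthase MTR 1.48. MAT1A, which makes the donor in liver, had 121, 27 and 599 fragments in PEF5, PEF7 and PEF8 and 4, 0 and 0 in the piPSCs. Most of its fragments were in PEF8. GNMT stayed at or under 0.119 FPKM and was not tested, and BHMT and NNMT were not analysed here.

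TET enzymes need 2-oxoglutarate, iron and ascorbate, and 8 genes for their supply or binding were tested. CXXC4 passed the filter through the piPSC libraries alone, so no count or median is given for them all. CXXC5, a CXXC protein that can bind TET2, fell by 2.31 on the log2 scale from 40.1, 24.1 and 21.0 FPKM in the PEFs to 3.85, 6.07 and 4.47 FPKM in the piPSCs. The ascorbate carrier SLC23A2 fell by 2.01, and IDH2, a source of 2-oxoglutarate, had 1.99. CXXC4 had 0 fragments in all 3 PEF libraries and 58, 27 and 6 in piPSC5, piPSC7 and piPSC8, at least 12.2-fold higher against a floor of 3 fragments per library, and at least 22.9-, 12.6- and 2.75-fold in lines 5, 7 and 8. The other ascorbate carrier SLC23A1 was not tested, with at most 0.762 FPKM.

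Among the genes that protect imprints, 6 were tested, 2 called higher and 0 lower, against 20.2% and 16.7% of all tested genes. The median log2 fold change of the 6 was 0.64. TRIM28, the corepressor of KRAB zinc finger proteins, had 30.7, 30.0 and 24.8 FPKM in the PEFs and 87.8, 89.4 and 74.6 FPKM in the piPSCs, and it rose by 1.53 on the log2 scale (limma, SE 0.15, adjusted p = 0.000675). The histone demethylase KDM1B had 1.93. The imprint guard ZFP57 was not tested, with 0.185, 0.296 and 0.218 FPKM in the PEFs and 0.620, 0.416 and 0.499 FPKM in the piPSCs. DPPA3, NLRP2, NLRP5, NLRP7, KHDC3L and CTCFL were not analysed here. Of the germline genes whose promoters are methylated in somatic cells, 7 of 12 (DDX4, MAEL, ASZ1, HORMAD1, STK31, TAF7L and BRDT) were listed and none reached the filter. DAZL, SYCP1, SYCP3, TDRD1 and TEX101 were not analysed here. Their summed level was 0.0962, 0.222 and 0.295 FPKM in PEF5, PEF7 and PEF8 and 0.254, 0.631 and 0.127 FPKM in piPSC5, piPSC7 and piPSC8.

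**Figure D5:**
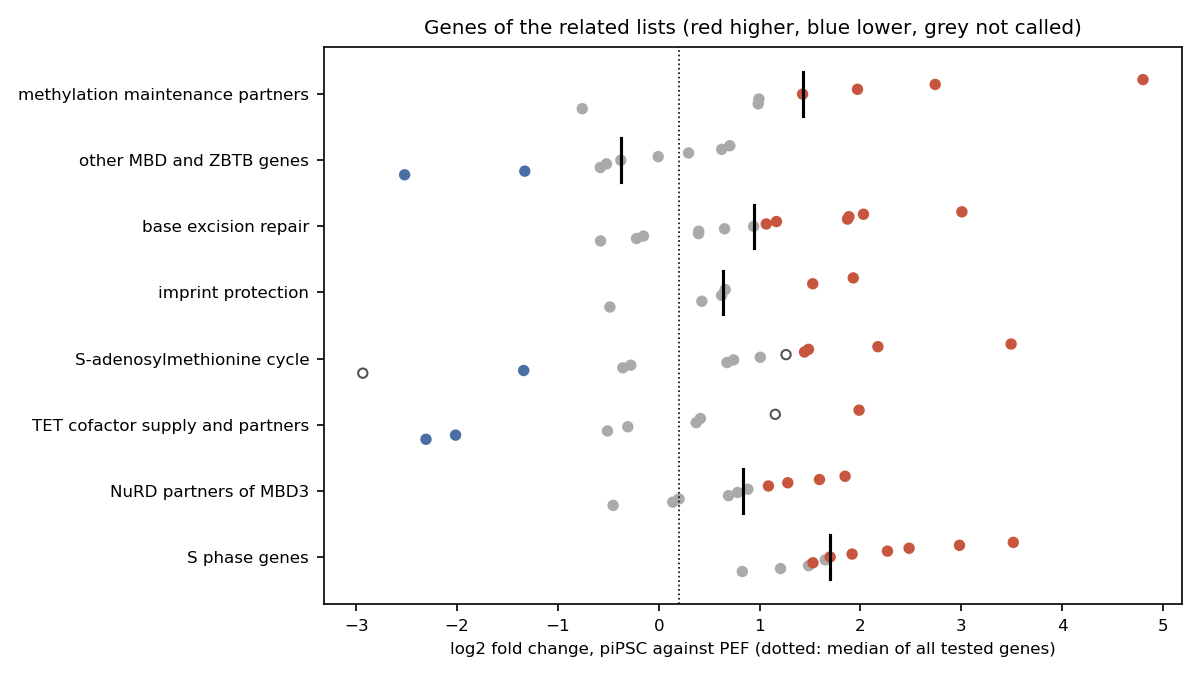
Log2 fold change in piPSCs against PEFs of each tested gene in 8 related lists, with red for called higher, blue for called lower, grey for not called, and a black bar at the list's median, left out where a gene passed the filter through 1 group alone (open circles). The medians run from -0.38 for the other MBD and ZBTB genes to 1.70 for the S phase genes, and the dotted line marks 0.20, the median over tested genes.

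For each tested member, the 3 named genes with the nearest profile over the 6 libraries were found, as the Euclidean distance of log2(FPKM + 1) values centred on their own mean. UHRF1 was nearest to MCM3 (0.409), TCF19 (0.572) and MCM4 (0.796), all high in PEF5 among the fibroblasts. DNMT1 was nearest to SRSF1 (0.289), TOPBP1 (0.295) and ZWINT (0.301), and TDG to NTHL1 (0.177), PHF10 (0.177) and GEMIN7 (0.185). TET3 was nearest to BMS1 (0.153), ZDHHC21 (0.244) and ACVR2B (0.315), which share its low value in piPSC7. The nearest to TET2 were CAMKMT (0.178), PLIN2 (0.197) and ZCCHC17 (0.209), and to TET1 ABCB6 (0.174), KIF13B (0.192) and NRDC (0.199). DNMT3A was nearest to ARHGAP21 (0.166), SNORA5 (0.206) and SLC25A14 (0.215), and DNMT3B to MRAP2 (0.225), COG3 (0.244) and ZNF510 (0.245), which peak in piPSC7 as it does. MBD3 was nearest to C2orf42 (0.0970), UBN1 (0.105) and TRIM11 (0.114), whose levels barely moved.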

How the data were processed

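The authors deposited FPKM values per gene, which were used as they stand. The submitters' processing notes name Bowtie2 2.2.3, HISAT2 2.1.0, HTSeq 0.6.0 and the build Sscrofa11.1, without their roles. Fragments were recovered from the steps of the FPKM values for 100% of the 18007 genes, to within 0.003 of a whole number. The smallest gene length that made all values whole was taken, so the counts are the smallest that fit. The groups were compared with limma 3.58.1 under R 4.3.3, using eBayes with a trend after lmFit, on log2(FPKM + 1), two-sided and with Benjamini-Hochberg adjustment over all tested genes. Ratios and shares were computed within each library with no pseudocount and compared by exact permutation tests, adjusted over 7. Python 3.11.15, numpy 2.4.6, pandas 2.3.3, pysam 0.24.0 and matplotlib 3.10.9 were used for the rest. The fits and the fragment recovery were tested on simulated data.

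Named are all 10 members, up to 4 called genes of each list by absolute log2 fold change, list genes left untested or at 0, and the 3 nearest profiles of each tested member. The lists cover maintenance partners, other MBD and ZBTB genes, base excision repair, imprint protection, the S-adenosylmethionine cycle, TET cofactors, NuRD, germline, S phase and cell type marker genes. The members and the lists were chosen with earlier results of these data known. Outside this rule are the cell type markers and most abundant genes named, UHRF2, the overlapping genes, DDX3Y, and the promoter windows with their E2F motif. The overlapping genes, the windows and the motif were not in the first plan and were added after values had been seen. The motif was set once, in 4 spellings.

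The PEF and piPSC lines of a number share a donor, so the libraries are paired by donor line. Once group means were taken off, the libraries of lines 5, 7 and 8 correlated at 0.0921, 0.0946 and 0.0800. Pairs of unlike number were all lower, from -0.121 (PEF7 with piPSC8) to 0.0553 (PEF7 with piPSC5). The line as a block, other pseudocounts, filters and scalings, no trend, voom on the recovered fragments and each library left out were the alternatives, and those for single list genes were added after the data had been seen.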

Additional observations from a re-analysis of the deposited data

How the results depend on the processing

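The count of members called was 5 as reported, 3 under rescaling to the median ratio and 3 under rescaling to an equal sum, and between 3 and 6 with 1 library left out. The 6 include DNMT3B, which passed the filter through the piPSC libraries alone. The equal sum of 1000000 also makes the pseudocount smaller against the values, and the 2 effects were not separated. With the line as a block it was 5, the block changed no call of a member, and the genes called numbered 4485 against 4575. Over all alternatives that number ran from 4049 to 5233. Of the called genes, 2505 were higher and 2070 lower as deposited, 1879 and 2511 under the median ratio and 1986 and 2815 under equal sums. A filter at a mean FPKM of 1 tested 7 members, without DNMT3B and TET1, and with no filter DNMT3L changed by -0.68 on the log2 scale (limma, adjusted p = 0.237).

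Signs turned for MBD3 under the median ratio (-0.25) and equal sums (-0.30), and its values with 1 library left out ran from -0.047 to 0.083. Those of TET1 ran from -0.00071 to 0.37. The log2 ratio of summed writers to summed TET genes was 0.25 with a pseudocount of 1 and 0.21 with fragments, and from -0.30 to 0.038 with 1 library left out. That of DNMT1 to the S phase genes ran from -0.55 to 0.17. The causes were not tested. The other 5 ratios and shares kept their direction under every alternative run. Of the alternative values of members' log2 fold changes, 122 kept their direction and their side of the adjusted p threshold, 2 gained it, 4 lost it and 5 turned. For the list genes 385 kept it and 34 did not.

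DNMT3L, CXXC4, TFAP2C and MAT1A had 0 fragments in some libraries, so their changes are limits or depend on the pseudocount. With 3 lines a group, p-values measure the spread between these lines, and RNA levels give no protein level, enzyme activity or methylation.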
